A study of Homo sapiens with 6 samples.

Results

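Oxidative phosphorylation is the process by which mitochondria pass electrons from NADH and succinate to oxygen through complexes I to IV and use the resulting proton gradient to make ATP at complex V. Most subunits of these complexes are encoded in the nucleus and imported, and each complex except complex II also holds subunits encoded by mitochondrial DNA. MYC-family factors, of which MYCN is the amplified one in many neuroblastomas, are known to act on genes of mitochondrial biogenesis. The genes described here are the nuclear ones for the subunits, taken from a table of read counts by their symbols (the NDUFA, NDUFB, NDUFC, NDUFS and NDUFV series, SDHA to SDHD, UQCR, CYC1, COX4 to COX8 with an isoform letter, and ATP5). Of 25370 genes in the table, 88 matched. The pseudogenes ATP5EP2 and UQCRBP1 and the assembly factor ATP5SL were left out, which left 85 genes. They comprised 37 of complex I, 4 of complex II, 10 of complex III, 16 of complex IV and 16 of complex V. NDUFA4, first assigned to complex I, was counted in complex IV, where it is placed today. ATP5S, a coupling factor, and the readthrough symbol ATP5J2-PTCD1, with 0 counts in all 6 libraries, were kept apart, so that 83 subunit genes remained. Symbols are those of the deposited table, several of which have since been renamed.

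RNA came from human neuroblastoma lines with MYCN amplification. BE2C cells with forced expression of LMO1, a LIM-only transcriptional co-regulator, gave 2 libraries, and BE2C cells with a control vector gave 2. Kelly cells and unmodified (parental) BE2C cells gave 1 library each. Both of these were a later deposit than the LMO1 and vector libraries. The study asked how LMO1 acts together with MYCN. The labels do not say whether a clone or a pool was used, which promoter drove LMO1 or whether replicate libraries stem from different cultures. The p-values thus cover the spread of these libraries, and that spread may be a technical one. With LMO1 the libraries held 18737591 and 22426978 counts and with vector 21946052 and 25070942, against 59512958 in Kelly and 48663459 in parental BE2C cells. Levels are in CPM, the counts of a gene scaled to a common library size, here with TMM factors between libraries.

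LMO1 itself stood at 6.59 and 5.89 CPM in cells with forced LMO1, 1.06 and 0.928 CPM in vector cells, 92.7 CPM in Kelly and 1.91 CPM in parental BE2C cells. Both LMO1 libraries lay above both vector libraries, as labelled, at a log2 fold change of 2.65 (SE 0.27, edgeR adjusted p = 3.46e-11). Of 8 neuroblastoma markers all were detected in every library, and MYCN was at 1568 to 2034 CPM. Other markers differed more between libraries. DBH had 90.4 and 79.4 CPM with LMO1, 13.5 and 15.0 CPM with vector, 860 CPM in Kelly and 35.1 CPM in parental BE2C cells. TH ran from 1.53 CPM in a vector library to 399 CPM in Kelly. GATA3 had 62.3 to 73.7 CPM in the modified libraries, 168 CPM in Kelly and 265 CPM in parental BE2C cells. The haematopoietic markers summed to 0.739 to 1.21 CPM, with CD3E at 0 throughout, and the epithelial markers to 1.74 to 2.81 CPM. The fibroblast markers COL1A1, COL3A1, DCN and LUM summed to 65.3 and 64.8 CPM in LMO1, 54.4 and 58.3 CPM in vector, 63.4 CPM in Kelly and 138 CPM in parental BE2C cells. Single markers moved in opposite directions between the modified lines: DCN had 37.3 and 34.2 CPM with LMO1 and at most 20.9 CPM with vector, and COL3A1 had 7.80 and 6.73 CPM with LMO1 and 24.7 and 25.9 CPM with vector. LUM had 18.3 and 21.2 CPM with LMO1 and 8.87 and 10.2 CPM with vector. In Kelly DCN stood at 0.198 CPM and in parental BE2C cells at 101 CPM. The part of these genes in the results below was not tested. In bulk RNA, fewer cells of a type and less RNA per cell cannot be told apart.

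The subunit genes with ATP5S made up a small and nearly equal share of all counts in the modified lines. The share was 1.12 and 1.14% with LMO1, 1.14 and 1.14% with vector, 0.777% in Kelly and 0.860% in parental BE2C cells. Complex I summed to 3677 and 3660 CPM with LMO1, 3737 and 3717 CPM with vector, 2240 CPM in Kelly and 2675 CPM in parental BE2C cells. Complex V, the ATP synthase, summed to 3382 and 3546 CPM with LMO1, 3706 and 3688 CPM with vector, 2588 CPM in Kelly and 2938 CPM in parental BE2C cells. The LMO1 and vector libraries therefore lay close to each other in each sum, at mean ratios of 0.937 to 1.01, while Kelly and parental BE2C cells lay lower. Complex IV held 2292 and 2296 CPM with LMO1, 2271 and 2290 CPM with vector, 1345 CPM in Kelly and 1578 CPM in parental BE2C cells. Complex II, succinate dehydrogenase, was the exception to the lower parental sums, with 433 and 457 CPM with LMO1, 457 and 461 CPM with vector, 341 CPM in Kelly and 530 CPM in parental BE2C cells. Without SDHC its sum was 300 and 323 CPM with LMO1, 321 and 314 CPM with vector and 245 CPM in parental BE2C cells. The exception thus rested on this gene. Complex III was the only complex with a higher sum in Kelly (1111 CPM) than in parental BE2C cells (946 CPM). It held 1275 and 1330 CPM with LMO1 and 1363 and 1359 CPM with vector.

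**Figure D1:**
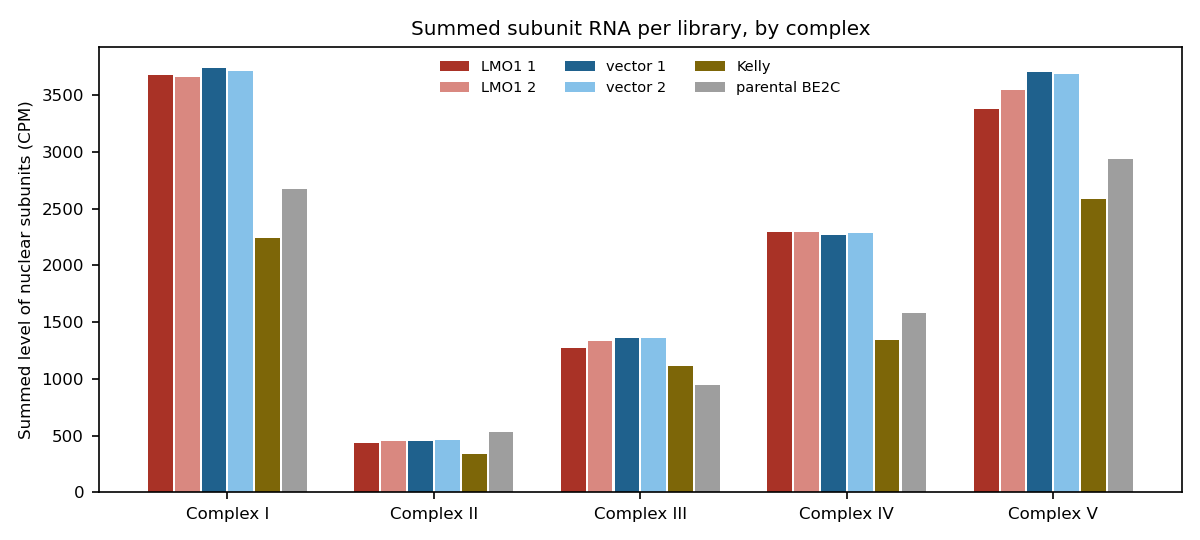
Summed level of the nuclear subunit genes of each complex (CPM, bars from 0) in each library, with the LMO1 and vector libraries left of Kelly and parental BE2C. Complex I stands at 3660 to 3737 CPM in the 4 modified libraries and at 2240 CPM in Kelly. Complex II is the complex with its highest bar in parental BE2C cells (530 CPM, of which SDHC held 285 CPM).

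Levels per length of annotated transcript differed widely between the subunits of 1 complex. Which transcripts the cells made was not measured, and reads of overlapping genes may have been split or dropped. ATP5B, the catalytic beta subunit, had the highest level per length of all subunit genes, with 651 CPM per kilobase as the mean over the 6 libraries. ATP5E, the epsilon subunit of the same complex, had 6.47 CPM per kilobase on a median annotated transcript of 1878 bases. That was the lowest of complex V apart from the copy ATP5L2 at 0.377. UQCRH, the hinge protein of complex III, reached 322 CPM per kilobase, against 28.0 for UQCRFS1, the Rieske iron-sulphur protein. In complex IV COX6A1 led with 412 CPM per kilobase, and in complex I NDUFB8 led with 215 CPM per kilobase and NDUFC1 was lowest with 22.4. Complex V and the top places in complexes I, III and IV kept this order when the longest annotated transcript was used in place of the median one. In complex II the order did not hold, since SDHC, a membrane anchor, had 363 CPM per kilobase on its median transcript and 12.3 on its longest. SDHB, the iron-sulphur subunit, had 35.9 on either length. UQCRHL, COX6A2, COX7B2, COX8C and ATP5L2 were at or near 0 and are described with their paralogues.

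Most subunit genes did not pass the test between LMO1 and vector cells, and the changes of those that did were small. Of the 83 genes 77 were tested, since UQCRHL, COX6A2, COX6B2, COX7B2, COX8C and ATP5L2 were too low. With LMO1, 9 rose (11.7%), 18 fell (23.4%) and 50 were not called, by edgeR's quasi-likelihood test at an adjusted p below 0.05. Over all 15480 genes tested, 15.9% were higher, 15.1% lower and 31.0% called in either direction, and the count of called subunits (27) was read against these shares. The falls lay mostly in subunits with longer transcripts. Of 52 tested subunits with a median transcript under 1000 bases 8 rose and 8 fell (15.4% each). Among all tested genes of that length 13.6% rose and 12.3% fell. Of the 25 longer subunits 1 rose and 10 fell (40.0%), beside 16.6% and 15.9% of all longer genes. The part of transcript length in these calls was not tested. ATP5S, tested apart, had a log2 fold change of 0.00 (edgeR adjusted p = 0.986). The median log2 fold change of the subunits was -0.02, against 0.00 over all genes. The called values ran from -0.21 to 0.41 on the log2 scale. With scaling by total counts the split was 12 higher and 10 lower, while with DESeq2's size factors it stayed at 9 and 18. The DESeq2 test called fewer subunits, 4 higher and 8 lower. The share of all genes called is given for the main fit only. Counts under the alternatives, here and below, therefore do not show whether subunits lost more calls than other genes did. Leaving out 1 library left 15 calls without LMO1 replicate 1, 16 without LMO1 replicate 2, 16 without vector replicate 1 and 19 without vector replicate 2. The 9 genes NDUFA12, NDUFA9, NDUFC2, UQCRC2, COX5A, COX7B, ATP5A1, ATP5F1 and ATP5I kept their call under all 12 alternatives, and the other 18 lost it under at least 1. None of the 27 reversed.

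**Figure D2:**
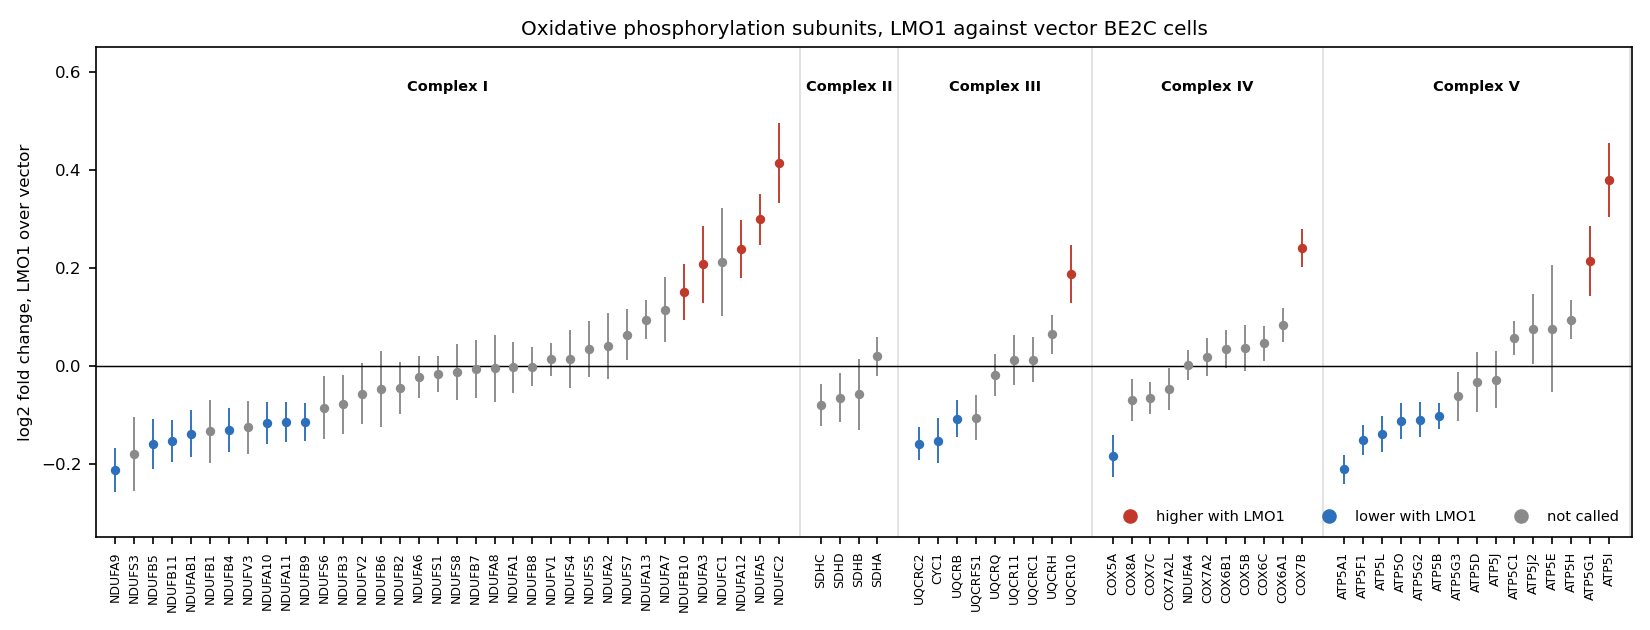
Log2 fold change of 75 of the 77 tested subunit genes, LMO1 over vector, with its standard error (bars), grouped by complex and coloured by the edgeR call. COX7A1, at about 1 CPM and with a log2 fold change of -0.74 that was not called, and 1 further gene are not drawn. NDUFC2 is highest at 0.41, and none of the 4 complex II genes is coloured.

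Complex I, the NADH dehydrogenase, has a core of subunits that carry the flavin, the iron-sulphur clusters and the quinone site, surrounded by accessory subunits. None of its 7 nuclear core genes passed the edgeR test or that of DESeq2, with 1 at an unadjusted edgeR p below 0.05, and 5 of its 30 accessory genes rose (16.7%) and 8 fell (26.7%), beside 15.9% and 15.1% of all genes. The lower genes of complex I numbered 1 without LMO1 replicate 1, 3 without LMO1 replicate 2, 4 without vector replicate 1, 3 without vector replicate 2, 3 with total-count scaling and 2 with DESeq2. The higher ones numbered 3 without either LMO1 replicate or without vector replicate 1, and 2 with DESeq2. Among the core genes NDUFV1, which binds NADH, had 289 and 279 CPM with LMO1 and 285 and 280 CPM with vector. The ranges of the groups overlapped. NDUFS3 was the core gene nearest to a call, with 35.6 and 36.2 CPM with LMO1, 41.1 and 40.6 CPM with vector and an edgeR adjusted p of 0.0618. The accessory gene NDUFC2 had the highest fold change of all, with 34.9 and 36.7 CPM with LMO1 and 26.8 and 27.2 CPM with vector (log2 fold change 0.41, SE 0.08, edgeR adjusted p = 8.19e-05). Its libraries did not overlap between the groups, and it was lower still in Kelly (12.0 CPM) and parental BE2C cells (17.4 CPM). NDUFA5, of the matrix arm, had 140 and 118 CPM with LMO1 and 106 and 103 CPM with vector (log2 0.30, SE 0.05, edgeR adjusted p = 8.77e-06). LMO1 replicate 1 was the high library there, and DESeq2 did not call the gene. NDUFA12 had 68.3 and 71.4 CPM with LMO1 and 60.3 and 58.8 CPM with vector (log2 0.24, SE 0.06, edgeR adjusted p = 0.00155). NDUFA3 and NDUFB10 rose by log2 0.21 and 0.15, both with calls lost under 7 of the 12 alternatives.

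Of the accessory genes that fell with LMO1, NDUFA9 moved most. It had 114 and 113 CPM with LMO1 and 135 and 129 CPM with vector, without overlap (log2 fold change -0.21, SE 0.04, edgeR adjusted p = 0.000154). The other 7 were NDUFA10, NDUFA11, NDUFAB1, NDUFB4, NDUFB5, NDUFB9 and NDUFB11, with log2 fold changes between -0.16 and -0.11. NDUFAB1, the mitochondrial acyl carrier protein, had 99.5 and 104 CPM with LMO1 and 116 and 109 CPM with vector (log2 -0.14, SE 0.05, edgeR adjusted p = 0.0223). Each of these 7 lost its call under at least 1 alternative, and NDUFB11 lost it only without LMO1 replicate 1.

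NDUFA12 and NDUFA9 thus moved in opposite directions, and the start regions of both held the word bound by NRF1, nuclear respiratory factor 1, a known regulator of respiratory subunit genes. RefSeq windows of 300 bases (250 before to 50 after the start, GRCh38.p14) were found for 67 of the 83 genes and searched on both strands for 6 words. The NRF1 word, GCGC and TGCGC with any 1 base between them, was in 16 of them (23.9%), against 8.57% of 15842 protein-coding windows and 11.3% of the 10993 windows of tested genes. Of those 16 genes 4 rose, 4 fell and 7 were not called. The 150 bases before the start are shown for both genes, with the NRF1 word in capitals. They lie at chr12:95003698-95003847 on the minus strand for NDUFA12 and at chr12:4648964-4649113 on the plus strand for NDUFA9.
NDUFA12: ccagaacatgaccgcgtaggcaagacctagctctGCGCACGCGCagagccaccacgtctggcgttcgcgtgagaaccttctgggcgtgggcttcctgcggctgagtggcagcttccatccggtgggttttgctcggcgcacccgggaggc
NDUFA9: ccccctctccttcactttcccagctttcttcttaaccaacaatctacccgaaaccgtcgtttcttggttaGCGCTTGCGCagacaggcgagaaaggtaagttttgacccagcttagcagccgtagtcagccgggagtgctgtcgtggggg
The ETS word CCGGAAG, read by GABP and other ETS factors, was in 26.9% of the subunit windows, against 18.3% of those of tested genes. The YY1 word AAGATGGC was in 16.4%, against 5.14%, and the cyclic AMP response word TGACGTCA was in 7.46%, against 3.29%. The E-box CACGTG, a word that MYC-family proteins bind, was in 10.4%, close to the 9.92% among tested genes. The GC-box GGGCGG was in 56.7%, below the 69.0% among tested genes. Matches of different words overlapped in 2 cases. Genes with an E-box split into 2 higher, 2 lower and 3 not called. A match only describes the letters of a window.

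Complex II feeds electrons from succinate and is also an enzyme of the citric acid cycle. None of its 4 genes passed the edgeR test or that of DESeq2, with 0 at an unadjusted p below 0.05. SDHA, the flavoprotein, had 165 and 173 CPM with LMO1, 170 and 165 CPM with vector, 84.8 CPM in Kelly and 121 CPM in parental BE2C cells. The second anchor SDHD had 94.6 and 105 CPM with LMO1, 107 and 102 CPM with vector, 49.7 CPM in Kelly and 93.7 CPM in parental BE2C cells. SDHB had 40.9 and 45.6 CPM with LMO1, 43.6 and 46.9 CPM with vector, 41.2 CPM in Kelly and 29.7 CPM in parental BE2C cells. The ranges of the LMO1 and vector libraries overlapped in these 3 genes. Those of SDHC did not, with 133 and 134 CPM with LMO1 and 136 and 147 CPM with vector, but its edgeR adjusted p was 0.163.

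Complex III passes electrons from ubiquinol to cytochrome c. Of its 9 tested genes 1 rose (11.1%) and 3 fell (33.3%), beside 15.9% and 15.1% of all genes. With DESeq2 0 were higher and 2 were lower. UQCRC2, a core protein, had 298 and 312 CPM with LMO1 and 333 and 352 CPM with vector, without overlap (log2 fold change -0.16, SE 0.03, edgeR adjusted p = 0.000163). Its partner UQCRC1 had 112 and 114 CPM with LMO1 and 114 and 111 CPM with vector, which overlapped. CYC1, cytochrome c1, had 105 and 109 CPM with LMO1 and 120 and 118 CPM with vector (log2 -0.15, SE 0.05, edgeR adjusted p = 0.00796), and lost its call without LMO1 replicate 1 and without vector replicate 1. The small subunit UQCR10 was higher, with 73.5 and 84.2 CPM with LMO1 and 67.8 and 71.5 CPM with vector (log2 0.19, SE 0.06, edgeR adjusted p = 0.0132). Its call rested on LMO1 replicate 2 and vector replicate 1 and was not made by DESeq2. UQCRB fell by 0.11 on the log2 scale, a call lost under 7 alternatives.

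Cytochrome c, which carries electrons on to complex IV and is encoded by CYCS outside the symbol series, rose with LMO1. CYCS had 563 and 555 CPM with LMO1, 467 and 472 CPM with vector, 340 CPM in Kelly and 530 CPM in parental BE2C cells. The groups did not overlap (log2 fold change 0.26, SE 0.03, edgeR adjusted p = 2.63e-10), and the call held under all 12 alternatives.

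Complex IV, cytochrome c oxidase, had 1 gene higher (8.33%) and 1 lower (8.33%) of 12 tested, below the 15.9% and 15.1% of all genes. COX7B had 195 and 202 CPM with LMO1 and 167 and 171 CPM with vector, without overlap (log2 fold change 0.24, SE 0.04, edgeR adjusted p = 1.57e-06). COX5A, which lies on the matrix side, had 119 and 121 CPM with LMO1 and 140 and 134 CPM with vector, again without overlap (log2 -0.18, SE 0.04, edgeR adjusted p = 0.000782). The other 10 tested genes had log2 fold changes between -0.07 and 0.08 except COX7A1. COX4I1, the usual form of the largest nuclear subunit, is not matched by the symbol series because its isoform letter is I. It had 288 and 291 CPM with LMO1 and 290 and 291 CPM with vector (log2 0.00, SE 0.03, edgeR adjusted p = 0.98).

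Several subunits of complex IV exist in tissue forms, and in all 6 libraries the widely expressed form held nearly all counts. COX6A2, the heart and muscle form, and COX7B2, a testis form, had 0 counts in every library, which allows at most 0.16 CPM (3 counts) at the lowest depth and 0.0504 CPM at the highest. COX8C had 0 to 14 counts per library and UQCRHL, a near-identical copy of UQCRH that may share its reads, 0 to 6. ATP5L2 had 2 to 26 counts, against 56.8 to 220 CPM of ATP5L. COX6B2, a testis form, was above a trace in Kelly only: it took 5.14% of the counts of COX6B1 and COX6B2 there (Wilson 95% interval 4.54 to 5.81%), against 0.7% in parental BE2C cells (0.508 to 0.963%) and 0.0753 to 0.187% in the modified libraries. COX7A1, the heart and muscle form, had 14 and 6 counts with LMO1 and 19 and 19 counts with vector. COX7A2L, which joins complexes III and IV into supercomplexes, took 54.2% of the counts of its set in Kelly (53.5 to 55.0%) and 46.1% in parental BE2C cells (45.2 to 46.9%), where COX7A2 held most of the rest. With LMO1 it took 40.4 and 39.2%, and with vector 39.7 and 41.9%. These are shares of counts between transcripts of unlike length. Per transcript length COX7A2L took 33.9% in Kelly and 27.0% in parental BE2C cells, below COX7A2 with 65.8 and 72.5%. COX6B2 took 1.82% of its pair in Kelly on that measure. The Wilson intervals, and the limits for 0 counts, cover counting error only.

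The clearest change in an alternative form was outside the symbol series. NDUFA4L2, a paralogue of NDUFA4 known to be induced by hypoxia-inducible factor, had 69.0 and 70.4 CPM with LMO1, 21.2 and 20.3 CPM with vector, 20.3 CPM in Kelly and 80.4 CPM in parental BE2C cells. The groups did not overlap, at a log2 fold change of 1.76 (SE 0.07, edgeR adjusted p = 2.14e-24). NDUFA4 itself had 396 and 406 CPM with LMO1 and 398 and 406 CPM with vector (log2 0.00, SE 0.03, edgeR adjusted p = 0.982). NDUFA4L2 therefore made up 14.8 and 14.8% of the pair's counts with LMO1, 5.05 and 4.77% with vector, 8.86% in Kelly and 21.3% in parental BE2C cells. Per transcript length its share was 24.0 and 23.9% with LMO1, 8.79 and 8.30% with vector, 15.0% in Kelly and 32.8% in parental BE2C cells. The LMO1 libraries lay above the vector libraries but below the parental one. COX4I2, the alternative form of COX4I1, was low, with 1.79 and 1.86 CPM with LMO1, 0.924 and 0.363 CPM with vector and 1.02 CPM in parental BE2C cells. In Kelly it took 3.57% of the counts of COX4I1 and COX4I2, against 0.48% in parental BE2C cells. It was called higher (log2 1.53, SE 0.44, edgeR adjusted p = 0.00589), a call lost under 4 of 11 alternatives.

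**Figure D3:**
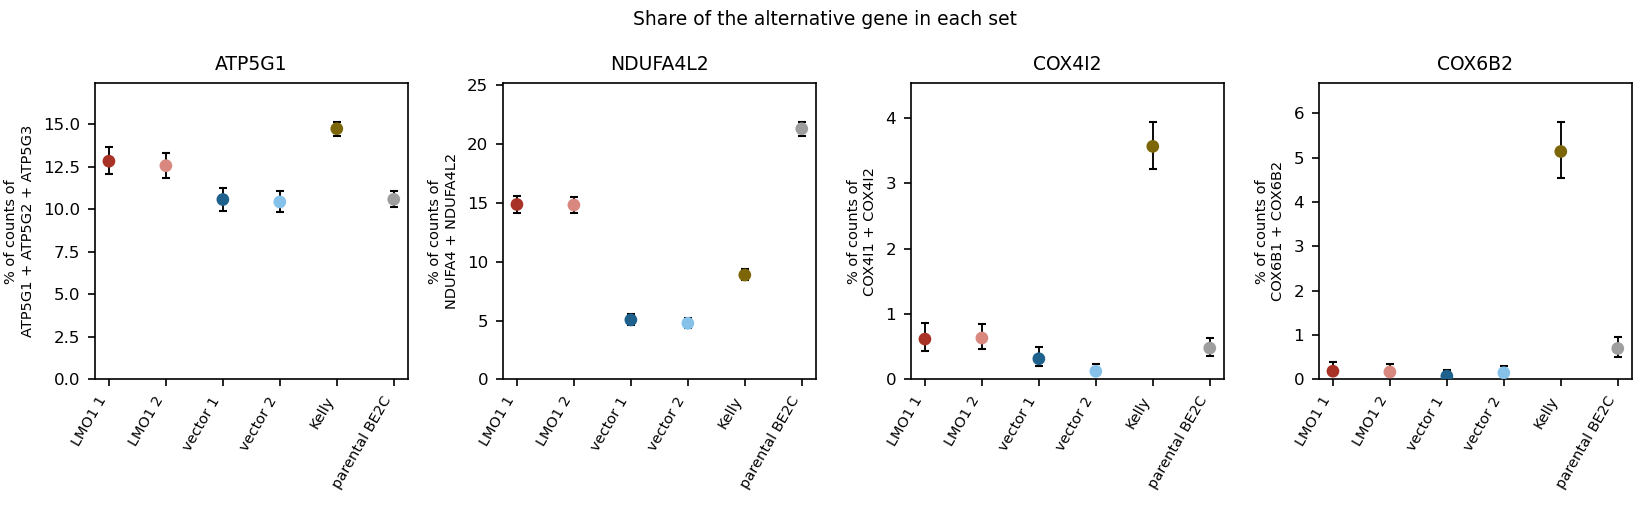
Share of counts (%) held by 1 gene of each paralogue set in each library, with Wilson 95% intervals that cover counting error only. ATP5G1 lies at 12.8 and 12.6% with LMO1 and at 10.6 and 10.4% with vector, NDUFA4L2 at 14.8% in both LMO1 libraries and at 5.05 and 4.77% with vector, and COX4I2 and COX6B2 have their highest share in Kelly.

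Of 15 tested genes of complex V 2 rose (13.3%) and 6 fell (40.0%), beside 15.9% and 15.1% of all genes. With DESeq2 1 was higher and 3 were lower, and without either vector replicate 1 was higher. Those that fell included parts of the catalytic head and of the peripheral stalk that holds it. ATP5A1, the alpha subunit of the head, had 421 and 449 CPM with LMO1 and 508 and 505 CPM with vector, without overlap (log2 fold change -0.21, SE 0.03, edgeR adjusted p = 1.63e-07). The beta subunit ATP5B had 1203 and 1310 CPM with LMO1 and 1362 and 1345 CPM with vector (log2 -0.10, SE 0.03, edgeR adjusted p = 0.00213), a call that DESeq2 did not make. Subunit b of the stalk, ATP5F1, had 348 and 361 CPM with LMO1 and 391 and 399 CPM with vector (log2 -0.15, SE 0.03, edgeR adjusted p = 0.000107). All 3 genes were lower in both LMO1 libraries than in either vector library. ATP5O, the stalk's OSCP subunit, and ATP5L, subunit g of the membrane part, fell by 0.11 and 0.14 on the log2 scale, calls lost under 4 and 2 alternatives. ATP5C1, the rotating gamma subunit, was not called, with 269 and 283 CPM with LMO1 and 262 and 270 CPM with vector. ATP5I, subunit e of the membrane part, rose, with 53.5 and 45.6 CPM with LMO1 and 38.4 and 37.9 CPM with vector (log2 0.38, SE 0.07, edgeR adjusted p = 7.64e-05). ATPIF1, an inhibitor of the synthase, had 52.0 and 58.0 CPM with LMO1 and 51.1 and 52.4 CPM with vector (edgeR adjusted p = 0.303).

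The c ring of complex V is made of 1 mature protein encoded by 3 genes, and these differed. ATP5G1 had 46.0 and 45.9 CPM with LMO1 and 40.1 and 39.4 CPM with vector (log2 fold change 0.21, SE 0.07, edgeR adjusted p = 0.0189). ATP5G2, the most abundant of the 3, had 214 and 211 CPM with LMO1 and 226 and 234 CPM with vector (log2 -0.11, SE 0.04, edgeR adjusted p = 0.0143). Neither pair of groups overlapped, but both calls were lost under 3 or 4 alternatives. ATP5G3 had 98.6 and 108 CPM with LMO1 and 113 and 104 CPM with vector, which overlapped. ATP5G1 took 12.8 and 12.6% of the counts of the set with LMO1, 10.6 and 10.4% with vector, 14.7% in Kelly and 10.6% in parental BE2C cells. The 3 genes share coding sequence and have pseudogenes, so counting could have moved reads between them or dropped reads. The window of ATP5G1 held an E-box, which is not within the bases shown, and the cyclic AMP response word. The latter is in capitals in the 150 bases before the start of ATP5G1, at chr17:48892637-48892786 on the plus strand (RefSeq, GRCh38.p14).
ATP5G1: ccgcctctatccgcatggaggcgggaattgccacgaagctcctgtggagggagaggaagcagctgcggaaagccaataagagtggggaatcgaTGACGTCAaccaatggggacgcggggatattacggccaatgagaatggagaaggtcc

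Genes of the surrounding mitochondrial pathways, taken from lists, were described in the same fit. Of 14 hypoxia-linked genes that act on mitochondria 11 rose and 0 fell by edgeR (8 and 0 by DESeq2, and 12 and 0 at an unadjusted edgeR p below 0.05), with a median log2 fold change of 0.52, beside 15.9% of all genes higher. The vector libraries were low for this list against the parental one. The median log2 ratio was -0.73 over 12 genes, against -0.03 over all genes. Of the 12 genes 7 (58.3%) were lower by at least 1.5-fold, beside 18.3% of all genes. The genes that rose included BNIP3L and BNIP3, receptors for the removal of mitochondria, with log2 0.63 and 0.55 (SE 0.05 and 0.04, edgeR adjusted p = 2.83e-15 and 1.35e-14), and the glucose transporter SLC2A1 with 0.74 (SE 0.06, edgeR adjusted p = 1.88e-14). BNIP3L had 125 and 127 CPM with LMO1, 83.0 and 80.2 CPM with vector, 110 CPM in Kelly and 160 CPM in parental BE2C cells. BNIP3 and SLC2A1 were likewise higher in the parental library (184 and 107 CPM) than in either LMO1 library. In Kelly BNIP3 stood at 150 CPM and SLC2A1, highest there, at 470 CPM. NDUFA4L2 and COX4I2 are also in that list. Of 23 genes of the citric acid cycle and pyruvate entry 1 rose (4.35%) and 7 fell (30.4%), beside 15.9% and 15.1% of all genes. The 7 became 3 without either LMO1 replicate, without vector replicate 1 or with DESeq2. They included citrate synthase CS (270 and 266 CPM with LMO1, 305 and 304 CPM with vector, log2 -0.18, SE 0.03, edgeR adjusted p = 1.73e-05) and IDH3G and PDHB with log2 -0.22 and -0.25. Of 28 genes of import and the outer membrane 1 rose (3.57%) and 11 fell (39.3%). The 11 became 5 without LMO1 replicate 1, 6 without any other single library, 6 with total-count scaling and 5 with DESeq2. They included the phosphate carrier SLC25A3 (log2 -0.21), PHB2 (-0.20), VDAC2 (-0.15) and TOMM22 (-0.20). Of 77 mitochondrial ribosomal protein genes 2 rose (2.60%) and 16 fell (20.8%). The 16 became 7 without LMO1 replicate 1, 7 without vector replicate 1, 8 without vector replicate 2, 8 with total-count scaling and 7 with DESeq2. MRPL15 had the lowest adjusted p (log2 -0.55, SE 0.06, edgeR adjusted p = 4.34e-11), before MRPS27, MRPL9 and MRPL45.

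Of 44 assembly factors 3 were higher (6.82%) and 3 lower (6.82%), below the 15.9% and 15.1% of all genes. PET100 (log2 0.28) and COX19 (0.27) were among the higher, and COA4 (-0.33) and TACO1 (-0.32) among the lower. COX19 lost its call under 3 of 12 alternatives and TACO1 under 1. Of 17 regulators of mitochondrial biogenesis 1 rose (5.88%) and 3 fell (17.6%). The higher one was PPARA (0.35). The lower ones were the co-activator PPRC1 (-0.37, SE 0.05, edgeR adjusted p = 1.02e-07), the mitochondrial RNA polymerase POLRMT (-0.13) and TFB2M (-0.22). PPARA and POLRMT lost their calls under 4 of 12 alternatives each and TFB2M under 7. PPRC1 had 77.2 and 75.7 CPM with LMO1 and 101 and 97.6 CPM with vector, without overlap. Of 19 further subunits and carriers outside the symbol series 4 rose (21.1%) and 3 fell (15.8%), beside 15.9% and 15.1% of all genes. ETFA (-0.23, SE 0.04, edgeR adjusted p = 1.58e-05), which brings electrons from fatty acid oxidation, was among the lower. The number of called genes in all lists together was 63 with edgeR and 30 with DESeq2. These counts compare the tests and are no share.

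Kelly and parental BE2C cells differ in line as well as in library, and 1 library a side gives no test. Ratios are of CPM with 1 added, which understates the change of low genes, over genes with at least 5 CPM in either library. Of 76 subunit genes 54 were lower in Kelly, with a median log2 ratio of -0.38 against -0.04 over all 12361 genes compared. By at least 1.5-fold 7 were higher (9.21%) and 16 lower (21.1%), against 25.1% and 24.9% of all genes. Complex I had a median log2 ratio of -0.40, with 30 of 37 genes lower in Kelly, complex II -0.65, complex III -0.02, complex IV -0.48 and complex V -0.10. The core genes of complex I had a median of -0.44 and the accessory genes -0.37.

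The highest ratios were those of NDUFS5 and UQCRH. NDUFS5, an accessory subunit of complex I, had 137 CPM in Kelly and 42.3 CPM in parental BE2C cells, a ratio of 3.20. UQCRH had 329 CPM in Kelly and 133 CPM in parental BE2C cells, a ratio of 2.47. In the modified BE2C libraries they stood at 68.9 to 73.0 CPM and 169 to 184 CPM, below Kelly as well. Without UQCRH the complex III sum was 782 CPM in Kelly and 813 CPM in parental BE2C cells, so the higher sum of that complex in Kelly rested on this gene. The window of UQCRH held the ETS word, in capitals in the 150 bases before its start at chr1:46303548-46303697 on the plus strand (RefSeq, GRCh38.p14).
UQCRH: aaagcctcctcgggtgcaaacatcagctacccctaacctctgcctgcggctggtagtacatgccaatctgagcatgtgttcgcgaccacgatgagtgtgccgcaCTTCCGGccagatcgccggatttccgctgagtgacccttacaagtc
The next were NDUFV2 (91.2 CPM in Kelly, 48.4 CPM in parental BE2C cells), UQCRC1 (125 and 68.0 CPM) and ATP5G1 (70.1 and 38.6 CPM). The lowest ratio was that of ATP5D, the delta subunit, with 18.9 CPM in Kelly and 56.3 CPM in parental BE2C cells (0.347). ATP5L had 56.8 CPM in Kelly and 144 CPM in parental BE2C cells (0.397), and NDUFS6, NDUFV3 and SDHD followed with ratios of 0.433, 0.490 and 0.535. The 4 modified libraries held 191 to 220 CPM of ATP5L and 62.3 to 69.0 CPM of ATP5D, so Kelly was lowest of the 6 in both. ATP5B decided the complex V sum: without it, the sum was 1783 CPM in Kelly and 1783 CPM in parental BE2C cells.

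The genes beside a subunit gene tended to share its direction between the lines. For each of the 76 genes the median log2 ratio of up to 5 compared genes on either side was taken, in the gene order of RefSeq (GRCh38.p14). For 63 of the 76 (82.9%) the subunit and its neighbours had the same sign, against 69.7% of 12176 genes in all. Across the 76 genes the correlation with the neighbours was 0.71 (Pearson's r) and 0.67 (Spearman's rho), against 0.37 and 0.47 over all genes. These are descriptions across genes of the same 2 libraries, and neighbouring genes are not independent. Around ATP5L 0 of 10 neighbours were higher in Kelly, with a median ratio of 0.421 beside the gene's own 0.397. Around UQCRH 9 of 10 were higher, with a median ratio of 1.53, below the gene's own 2.47. Around NDUFS5 8 of 10 were higher, with a median of 1.37, against 3.20 for the gene. SDHB had neighbours at a median ratio of 2.46 and stood at 1.37 itself. Gene copy number was not measured here, and its part in these ratios was not tested.

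**Figure D4:**
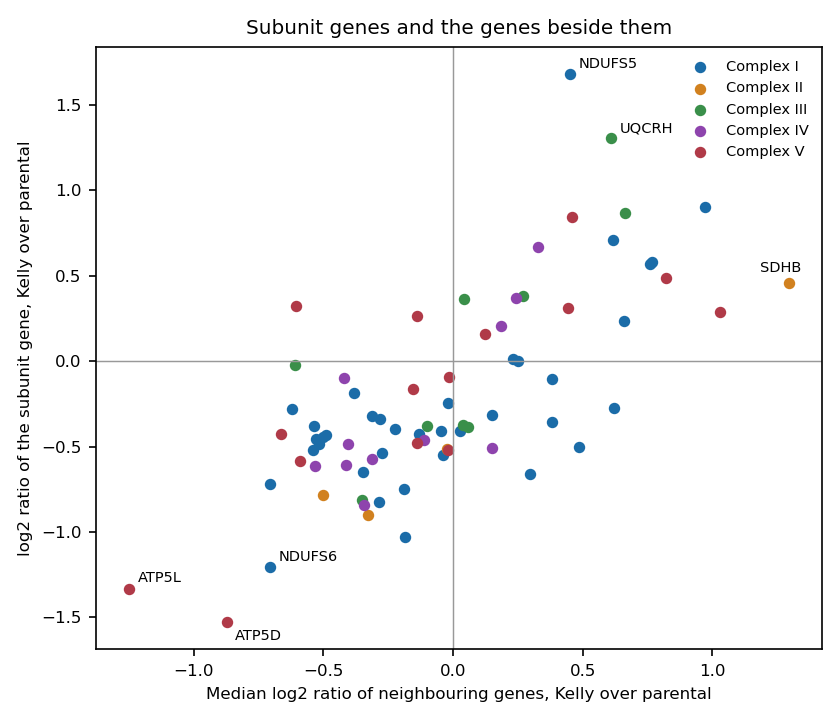
Log2 ratio of each of the 76 subunit genes, Kelly over parental BE2C, against the median log2 ratio of up to 5 compared genes on either side, coloured by complex. Points in the lower left and upper right quadrants share a sign with their neighbours (63 of 76), and ATP5L, ATP5D, NDUFS5 and UQCRH lie at the ends.

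The same line grown with a vector held more subunit RNA than its parental library in nearly all of these genes. Of 76 genes 72 were higher in the vector mean, with a median log2 ratio of 0.50 against -0.03 over all 11720 genes compared. By at least 1.5-fold 29 were higher (38.2%) and 1 lower (1.32%), against 8.57% and 18.3% of all genes. The vector libraries also enter the comparison with LMO1, and the parental library that with Kelly. UQCRQ, a small subunit of complex III, had the highest ratio, with 140 and 134 CPM with vector and 61.1 CPM in parental BE2C cells (2.22). ATP5J2, COX8A, NDUFB2 and NDUFA11 followed with ratios of 2.14, 2.12, 2.05 and 1.98. SDHC was the exception, with 136 and 147 CPM with vector and 285 CPM in parental BE2C cells (0.498). The next lowest were ATP5J, the F6 subunit, at 0.764, NDUFA5 at 0.833, NDUFA10 at 0.924 and ATP5G3 at 1.02. The sums over complexes I, III, IV and V were 1.39, 1.44, 1.44 and 1.26 times as high with vector, and that of complex II 0.866 times. Without SDHC the complex II sum was higher with vector (321 and 314 CPM) than in parental BE2C cells (245 CPM).

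These libraries differed in more than the modification. Histone and small RNA genes took 4.85 to 5.24% of counts in the 4 modified libraries, against 0.212% in Kelly and 0.218% in parental BE2C cells. Genes with a median transcript under 1000 bases, as most subunit genes have, had a median log2 ratio of 0.32 between vector and parental BE2C cells, against -0.06 for longer ones. The 51 short subunit genes lay at 0.50 and the 25 long ones at 0.46, so the long subunits stood further from other genes of their length class than the short ones. The sign of the neighbours was the same in 34 of 76 genes (44.7%), beside 53.0% of 11273 genes in all. Library content, transcript length, the separate deposit and the modification itself cannot be told apart in this comparison.

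**Figure D5:**
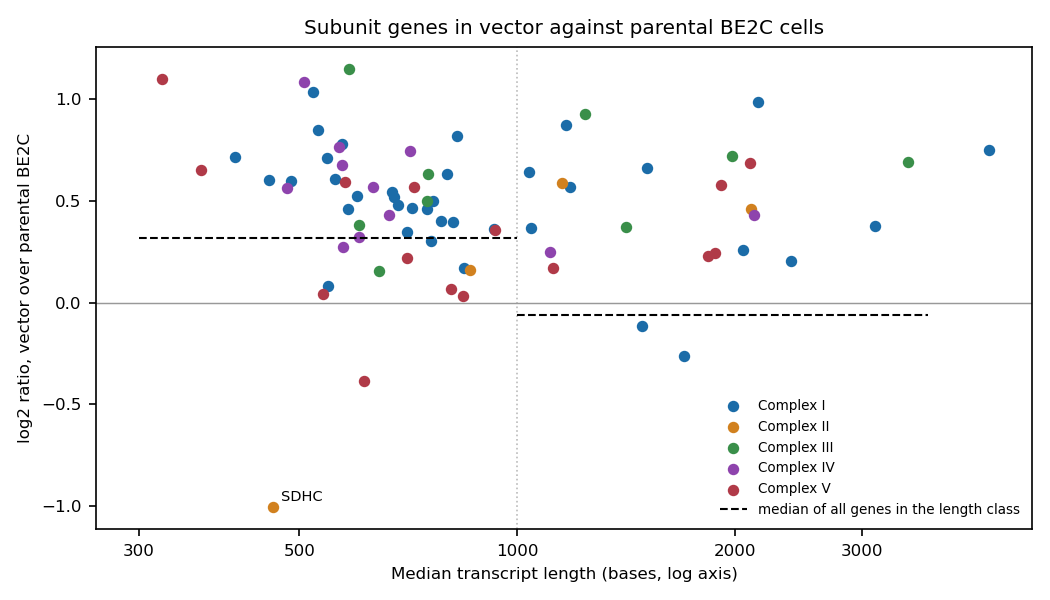
Log2 ratio of each of the 76 subunit genes, vector over parental BE2C, against the median length of its annotated transcripts (bases, log axis). Dashed lines give the median of all compared genes under 1000 bases (0.32) and above (-0.06), and 72 of the 76 points lie above 0, with SDHC lowest at -1.01.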

How the data were processed

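Raw counts per gene symbol for 6 libraries were used as deposited, with no normalization by the authors. Libraries were made with a stranded total RNA kit, per the labels' protocols. The submitters' processing notes name TopHat2 2.0.6, HTSeq and hg19. The annotation and strand setting are not given in the sources used here, so reads of overlapping, antisense or near-identical genes may have been split or dropped. The fit used edgeR 4.0.16 (R 4.3.3) on the 4 LMO1 and vector libraries: TMM scaling, filterByExpr (15480 genes kept, 9890 removed), quasi-likelihood F test, two-sided, Benjamini-Hochberg adjustment over all genes tested, threshold 0.05. Each SE was derived from that test, as the absolute log2 fold change divided by the square root of F. The common biological coefficient of variation was 3.60%, with 2 residual degrees of freedom. Replicates differed by more than counting error (chi-square over its degrees of freedom, 2.91 in LMO1 and 2.75 in vector). Means of CPM use factors over all 6 libraries. Transcript lengths came from GENCODE and promoter windows and gene order from RefSeq, both of GRCh38. Named genes were every called member, the paralogue sets, the SDH genes and CYC1, the 5 highest and 5 lowest single-library ratios, the extremes per length in each complex, and up to 4 called genes of each list by adjusted p. Results of 2 genes are not reported here. NDUFA4, NDUFV1, NDUFS3 and ATP5C1 were added after their values were seen, as were the neighbours of SDHB. Members and lists were chosen with earlier results of these data known. The test was also run on simulated counts with known changes. That run checked the code and is no support for the small changes called here.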

Additional observations from a re-analysis of the deposited data

How the results depend on the processing

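No call among the 27 reversed under the 12 alternatives, which were other scalings, filters, tools, samples in the fit, a replicate block and each library left out. DESeq2 called 12 subunits (4 higher, 8 lower) and 30 genes of the other lists. Total-count scaling gave 10 lower, and the median log2 fold change then was 0.01, with that of all genes at 0.03. With 1 library left out, calls ran from 15 to 19, those higher from 5 to 8, those lower from 8 to 11, and calls in the other lists from 33 to 44. Same-numbered libraries did not deviate together over all tested genes (correlation -0.0209 across genes). That value cannot exclude a pairing that acts on part of the genes. The replicate block gave 27 calls (9 higher, 18 lower). For Kelly over parental BE2C cells, the median was -0.34 with total-count scaling, and 2 genes were higher and 4 lower by 2-fold. For vector over parental BE2C cells, it was 0.44 when histone and small RNA genes were left out of the scaling, 0.46 without the filter on low values, and 0.49 to 0.54 with 1 vector library, and 4 genes were higher by 2-fold. The 2-fold counts of both comparisons, and the calls under each alternative, have no share over all genes beside them. The cause of the shifts between settings was not tested. At 2 libraries a group, the small changes called here rested on the shared estimate of spread, and the single libraries of Kelly and parental BE2C cells have no replicate check.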
